A study of Sus scrofa with 36 samples.

Results

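The developmental transcription factor families of the pig heart were followed through the first 28 days after birth. Genes were taken by name, as protein-coding genes whose symbol begins with FOX, SOX, TBX, GATA, KLF, MEF2, SMAD, MEIS, TEAD, HES, HEY, NFAT, NR and a number, ROR, THR and A or B, TCF or ETV, without GATAD names. This named 74 of the 9815 genes in the table, and 57 of them reached 10 counts in 3 or more of the libraries and were tested, among 5526 genes in all. The values came from hearts of domestic Yorkshire pigs of both sexes at postnatal day (P) 1, 3, 7 and 28, sequenced as total RNA after rRNA depletion, with 3 pigs and so 3 libraries at each age. No treatment or genetic change was applied, and an age differs from another only in the age of its pigs as far as the labels state. The libraries of an age are called number 4, 5 and 6, as the columns number them. The table held genes of chromosomes 1, 2, 6 and 13 only, so family members on other chromosomes were not analysed here.

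These families recur throughout heart development. GATA, MEF2, TBX, TEAD and HEY factors act in the specification and growth of heart muscle, SMAD proteins carry signals of TGF-β and BMP receptors to the nucleus, HES and HEY genes are targets of Notch signaling, most NFAT factors respond to calcium through calcineurin, and nuclear receptors (NR, ROR, THR) bind hormones, lipids or no known ligand. In the weeks after birth, pig cardiomyocytes stop dividing and mature under changing hormone levels, oxygen and load. A name was not always a function: 5 of the 57 genes were not counted as transcription factors (TBXA2R, a thromboxane receptor; ROR1, a receptor for Wnt ligands; TCF25; and the partner proteins NR2C2AP and THRAP3), and the TCF names cover basic helix-loop-helix factors such as TCF21 and TCF4 rather than the TCF/LEF factors of Wnt signaling.

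Total counts per library ranged from 8887176 to 14883849. Values are given as counts relative to the library size (CPM) after TMM normalization, which scales libraries so that most genes do not differ. The cardiomyocyte markers measured (7 genes, among them TNNI3 and MYL3) summed to 65209 to 91433 CPM in every library, so the tissue carried its label. Library number 5 of P3 stood apart from the other libraries on the second principal component, and library number 4 of P1 on the third. Both entered the fit, whose common dispersion, a measure of the spread between libraries, was 0.0446 with all 12 libraries and 0.0274 without these.

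More of the named factors passed between P7 and P28 than between the other pairs of ages compared. With edgeR's quasi-likelihood test over 4 ages, 16 of the 57 genes (28.1%) passed at an adjusted p under 0.05, against a background of 21.4% of all genes tested. With limma voom 12 genes (21.1%) passed over 4 ages, against 21.4% of all genes, and with DESeq2 19 (33.3%), against 32.3%. No gene passed between P1 and P3 (background 0.0543%), although 10 (17.5%) had an unadjusted p under 0.05 (background 15.2%), and among the 57 SMAD7 alone passed with DESeq2. Between P1 and P7, 3 genes passed (5.26%, background 2.01%). Between P1 and P28, 7 genes passed (12.3%, background 15.3%), 2 of them higher at P28 (3.51%, background 7.38%) and 5 lower (8.77%, background 7.93%). Between P7 and P28, 14 genes passed (24.6%, background 18.8%), 9 higher at P28 (15.8%, background 8.34%) and 5 lower (8.77%, background 10.5%). The median log2 difference of the 57 genes was 0.019 from P1 to P28 and 0.057 from P7 to P28, against 0.0035 and 0.013 over all genes tested. The differences between these shares and the background were not tested, and the genes are read here 1 by 1, not as a result about the families. In all, 20 genes passed in at least 1 comparison and 37 in none.

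The counts depended on which libraries entered the fit. Without 1 library, the count from P7 to P28 fell from 14 to 8 (without P7 number 4, 5 or 6 or P28 number 5 or 6), that from P1 to P7 from 3 to 0 (without P1 number 4 or P7 number 4, 5 or 6), and that over 4 ages from 16 to 9 (without P28 number 6). Of the 8 genes from P7 to P28, 4 were higher and 4 lower without P7 number 4 or 5 or P28 number 5 or 6. Without P7 number 6, 3 were higher and 5 lower. The excess of genes higher at P28 thus rested on single libraries. Without P1 number 4 and P3 number 5, 18 of 57 genes passed between P1 and P28 (31.6%, background 23.7%), 18 between P7 and P28 (31.6%, background 31.1%) and 18 over 4 ages (31.6%, background 31%). The genes that passed between P1 and P28 in that fit and not with all libraries were FOXD3, FOXO6, GATA2, GATA6, HES4, KLF16, KLF9, NFATC1, NR1H2, ROR1 and RORA. FOXO6 and KLF16 were lower at P28 and the other added genes were higher. The sizes of the differences moved too. GATA6 had a log2 difference of 0.60 with all libraries and of 0.88 in that fit (SE 0.15, adjusted p = 0.00311), and RORA of 0.43 and of 0.61 (SE 0.095, adjusted p = 0.00213). Without P3 number 5 alone, a library of neither age, 14 genes (24.6%) passed between P1 and P28, against 25.6% of all genes tested, and without P1 number 4 alone 10 genes did (17.5%, against 12%). Of the 14, 8 were higher at P28 and 6 lower, against 2 higher and 5 lower with all libraries. With the thresholds used in the study (an unadjusted p of at most 0.05 and an absolute log2 fold change over 0.5), 7 genes passed from P1 to P3 (background 10.6%), 7 from P1 to P7 (background 11.7%), 15 from P1 to P28 (background 23.1%) and 17 from P7 to P28 (background 25.1%).

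**Figure D1:**
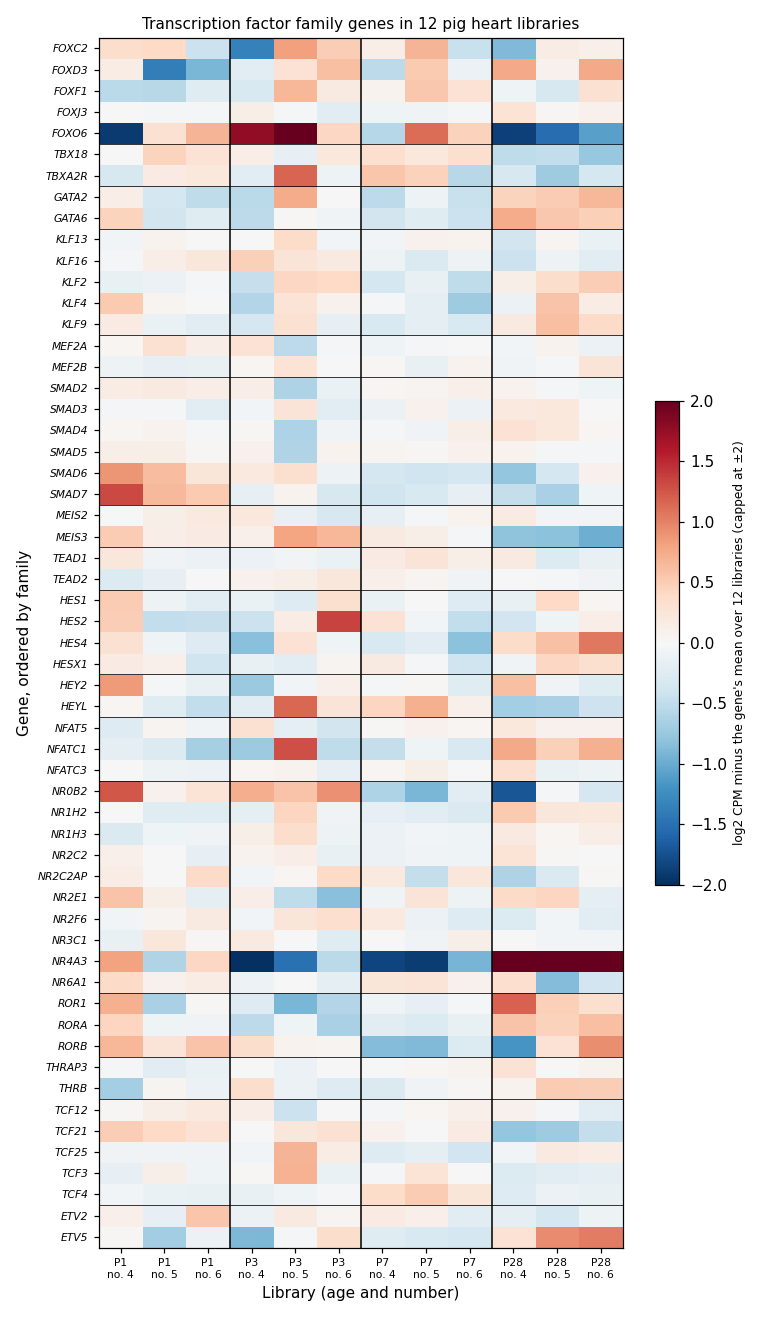
Each row is 1 of the 57 genes, ordered by family, and each column 1 of the 12 libraries. Color gives log2 CPM minus the gene's mean over the 12 libraries, capped at 2 in either direction. NR4A3 is blue at P3 and P7 and deep red in all 3 libraries of P28, TCF21, TBX18 and MEIS3 are blue at P28, SMAD6 and SMAD7 are red at P1, and most other rows stay pale. FOXO6, at 2 to 45 counts per library, has a wide range.

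Levels were compared between genes per length, as CPM per kilobase of gene length in the table, averaged over 12 libraries. GATA6, a zinc finger factor needed for heart development, had the highest level at 180.3 CPM per kb, which lay at percentile 96.2 of protein-coding genes. MEF2A, which drives muscle genes, followed at 126 CPM per kb, and SMAD4, the partner shared by the signaling SMAD proteins, at 117. KLF9, a glucocorticoid-responsive zinc finger factor, TEAD1, the DNA-binding partner of YAP, and HEY2, a Notch target of the ventricle, lay at 80.7, 78.3 and 75.3 CPM per kb. The lowest was RORB, a ROR receptor best known from brain and retina, at 0.210 CPM per kb. The median over the 57 genes was 16.2 CPM per kb and that over all protein-coding genes tested was 13.04.

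**Figure D2:**
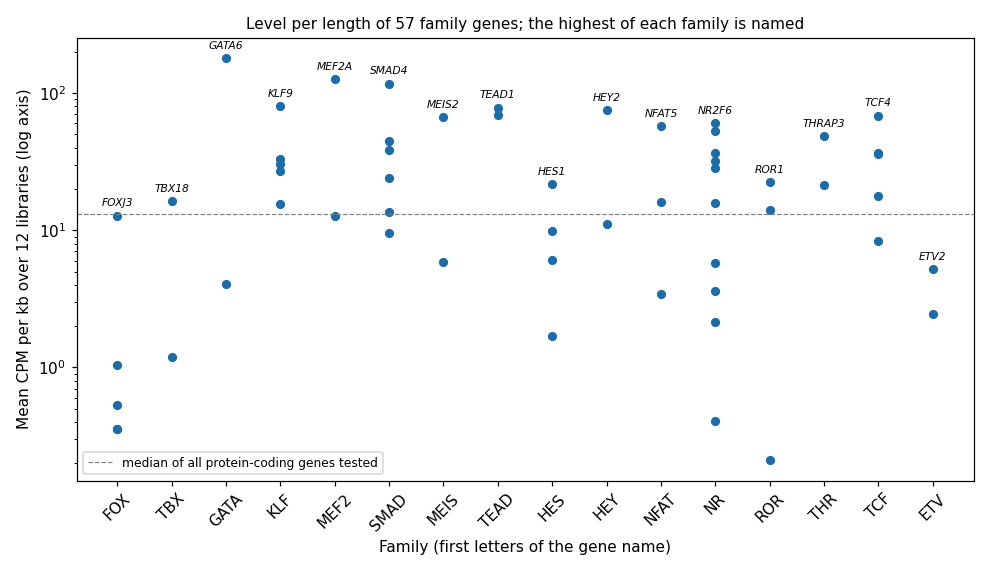
Mean CPM per kb over 12 libraries on a log axis for each of the 57 genes by family, with the top gene of each family named. The dashed line is the median of all protein-coding genes tested, 13.04 CPM per kb. Levels run from 0.210 for RORB to 180.3 for GATA6, and the FOX and ETV genes lie on or under the line.

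NR4A3 had the largest log2 difference of the 57 genes from P1 to P28 and from P7 to P28. It encodes an orphan nuclear receptor whose transcription is induced within minutes to hours by many stimuli (ENSSSCG00000005385, chromosome 1, 241569905 to 241611734). Its CPM were 142, 53.1 and 108 at P1, 18.7, 28.5 and 55.6 at P3, 22.5, 21.5 and 42.4 at P7 and 342, 864 and 517 at P28. All 3 libraries of P28 lay above every library of the other ages. From P7 to P28 it rose 19.97-fold (log2 4.32, SE 0.51, n = 3 per age, adjusted p = 3.41e-04), and from P1 to P28 5.69-fold (log2 2.51, SE 0.47, adjusted p = 0.00452). Both differences passed without any single library, with an adjusted p of up to 0.0206. The difference from P1 to P7 had a log2 of -1.81 and an adjusted p of 0.0639. In bulk tissue, fewer cells of a type and less RNA per cell cannot be told apart.

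Immediate early genes, which are induced quickly without new protein synthesis, were looked at beside NR4A3. Of 7 such genes tested, 4 rose from P7 to P28 (EGR1, JUNB, ZFP36 and CSRNP1; background 8.34%), none fell, and the median log2 difference was 1.32 against 0.013 over all genes. EGR1, a zinc finger factor, had 13.8, 14.2 and 18.8 CPM at P7 and 51.3, 59.8 and 44.0 at P28 (log2 1.73, SE 0.29, adjusted p = 0.00209). JUNB, a subunit of AP-1, had 22.9, 17.9 and 18.7 CPM at P7 and 61.7, 48.5 and 43.7 at P28 (log2 1.37, SE 0.22, adjusted p = 0.00151). FOSB, GADD45B and PPP1R15A did not pass, and their log2 differences were 1.88, 0.49 and 1.08. From P1 to P28, 1 of the 7 rose (ZFP36, log2 0.85, adjusted p = 0.00782), against a background of 7.38%, and none fell. The median log2 difference of the 7 from P1 to P28 was 0.67. The 7 genes summed to 234 to 275 CPM at P7 and to 442 to 615 CPM at P28. At P1 they summed to 269.8 to 472 CPM and at P3 to 222 to 509. PPP1R15A, which did not pass, had the highest CPM of the 7 in these sums. In P1 number 4 and P3 number 5, EGR1, JUNB, FOSB and ZFP36 lay below every library of P28, as did NR4A3 at 142 and 28.5 CPM. CSRNP1 in P1 number 4, at 25.8 CPM, lay within the range of P28. PPP1R15A lay within it in both libraries, at 270 and 308 CPM against 179 to 325. GADD45B, at 49.3 and 57.2 CPM against 39.4 to 55.4, lay within it and above it. In P3 number 6, EGR1 had 49.5 CPM, within its P28 range of 44.0 to 59.8. The part of a shared early response in the level of NR4A3 was not tested.

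**Figure D3:**
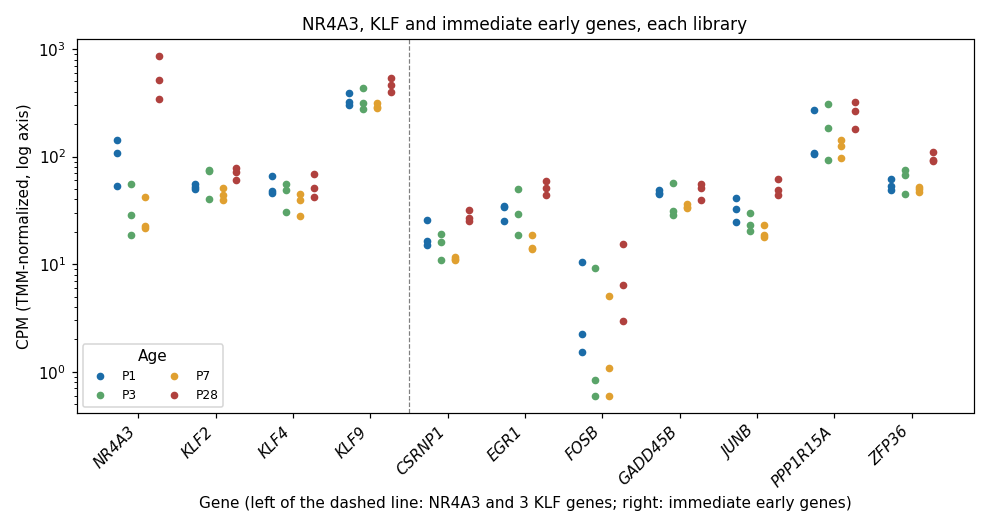
CPM of each library on a log axis, colored by age, for NR4A3 and 3 KLF genes (left of the dashed line) and 7 immediate early genes (right). NR4A3 at P28 lies between 342 and 864 CPM, clear of the other ages, and EGR1, JUNB, ZFP36 and CSRNP1 at P28 lie above all 3 libraries of P7.

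Of the other nuclear receptors, RORA and NR1H2 rose from P7 to P28. RORA, an orphan receptor that activates clock and lipid genes (ENSSSCG00000004576, chromosome 1, 110719190 to 111477703), had 113, 79.4 and 80.1 CPM at P1, 58.5, 79.5 and 53.4 at P3, 71.6, 69.5 and 76.0 at P7 and 125, 115 and 128 at P28. The P28 libraries lay above all others. It rose 1.70-fold from P7 to P28 (log2 0.76, SE 0.17, adjusted p = 0.00924), without any single library too, whereas from P1 to P28 its adjusted p was 0.105. NR1H2, the oxysterol receptor LXRβ (ENSSSCG00000003211, chromosome 6, 55237953 to 55245456), rose 1.46-fold from 82.3 ± 3.28 CPM at P7 to 120.1 ± 14.87 at P28 (SD, n = 3; adjusted p = 0.0348), and the 2 groups did not overlap. This call was lost without P7 number 4, 5 or 6 or P28 number 4, 5 or 6, with an adjusted p of up to 0.125 (without P28 number 4).

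NR0B2, known as SHP, a receptor without a DNA-binding domain (ENSSSCG00000003565, chromosome 6, 84225694 to 84228094), passed over 4 ages only (adjusted p = 0.0475). It had 8.58, 3.74 and 4.28 CPM at P1 and 5.91, 5.32 and 6.80 at P3, against 2.25, 1.79 and 3.03 at P7 and 0.963, 3.46 and 2.76 at P28. Every library of P7 lay below those of P1 and P3, and counts were 12 to 115 per library. The call was lost without P1 number 6, P3 number 4, 5 or 6, P7 number 4, 5 or 6 or P28 number 6, with an adjusted p of up to 0.113 (without P7 number 5), and with the library number as a replicate block (adjusted p = 0.0792). ROR1, which by name alone falls among the ROR genes but is a cell-surface receptor (ENSSSCG00000003811, chromosome 6, 148315283 to 148761721), also passed over 4 ages only (adjusted p = 0.0421), at 118 ± 5.21 CPM at P7 and 206 ± 69.6 at P28. That call was lost without P1 number 6, P3 number 5 or 6, P7 number 4, 5 or 6 or P28 number 4, 5 or 6, with an adjusted p of up to 0.140 (without P28 number 4), and with limma voom (adjusted p = 0.0507).

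Neither NR3C1 nor THRB, hormone receptors known from the maturing heart, passed in any comparison. NR3C1, the glucocorticoid receptor, had a log2 difference from P1 to P28 of -0.08 (95% interval -0.37 to 0.21), at 369.6 ± 48.2 CPM at P1 and 349.7 ± 7.07 at P28. THRB, a thyroid hormone receptor, had 109.6, 182 and 161 CPM at P1 and 184, 249 and 247 at P28. These groups did not overlap, the log2 difference was 0.59 (95% interval 0.14 to 1.04), and its adjusted p was 0.0733, whereas it passed with DESeq2. Of 3 glucocorticoid receptor target genes tested, CRISPLD2 rose from P7 to P28 (log2 0.75, adjusted p = 0.0280), HSD11B2, which inactivates cortisol, fell (log2 -1.68, adjusted p = 0.0288), and SGK1 did not pass at a log2 of 0.052. SLC16A10, a thyroid hormone transporter and the only gene tested of its list, did not pass either (log2 0.43, adjusted p = 0.0649). From P7 to P28, 8.34% of all genes tested rose and 10.5% fell.

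Of 4 circadian clock genes tested beside RORA, BHLHE40, a repressor in the clock, rose from P7 to P28 (log2 1.04, adjusted p = 0.0225), as did CRY2 (log2 0.64, adjusted p = 0.0393), and none fell. ARNTL, the BMAL1 activator, had a log2 difference of 0.71 and DBP one of 0.085, and neither passed. Between these ages 8.34% of all genes tested rose and 10.5% fell. From P1 to P28 none of the 4 passed, at a log2 of 0.45 for BHLHE40 and -0.086 for CRY2. The mean CPM of CRY2 was 375 at P1, 227 at P7 and 353 at P28. A gene that the table leaves without a name, and the rule therefore left out, is NR1D2 by its identifier, the clock repressor REV-ERBβ. It had 366, 365 and 346 CPM at P1, 242, 249 and 252 at P7 and 597, 456 and 461 at P28, and rose from P7 to P28 (log2 1.03, SE 0.15, adjusted p = 9.40e-04).

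GATA6 and GATA2 were the GATA factors measured, and both rose from P7 to P28. GATA6 (ENSSSCG00000003702, chromosome 6, 107282847 to 107314634) had 743, 421 and 459.9 CPM at P1, 378, 555 and 519.9 at P3, 419.7, 459.5 and 403 at P7 and 904, 791 and 759.8 at P28. The 3 libraries of P28 lay above all others, and library number 4 of P1, at the edge of its group, lay near them. It rose 1.92-fold from P7 to P28 (log2 0.94, SE 0.20, adjusted p = 0.00756), without any single library too. From P1 to P28 its log2 difference was 0.60 (adjusted p = 0.0660). GATA2, a factor of endothelial and blood cells (ENSSSCG00000011618, chromosome 13, 71984063 to 71997622), had 9.43, 12.7 and 9.98 CPM at P7 and 18.6, 19.6 and 21.8 at P28, with P3 number 5 above both at 23.0 CPM. Its rise was 1.86-fold (log2 0.90, SE 0.29, adjusted p = 0.0475), and the call was lost without P1 number 5 or 6, P3 number 6, P7 number 4, 5 or 6 or P28 number 4, 5 or 6, with an adjusted p of up to 0.144 (without P7 number 4).

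Among the KLF zinc finger factors, 2 of 5 tested rose from P7 to P28 (background 8.34%), and none fell. KLF9 (ENSSSCG00000021646, chromosome 1, 223720445 to 223748226) had 394, 321 and 305 CPM at P1, 279.8, 435 and 316 at P3, 285, 312 and 287 at P7 and 401, 534 and 459.6 at P28. The libraries of P7 and P28 did not overlap, whereas P3 number 5 lay among those of P28. The rise was 1.58-fold (log2 0.66, SE 0.17, adjusted p = 0.0186), and it was lost without P7 number 4, 5 or 6 or P28 number 5, with an adjusted p of up to 0.0781 (without P28 number 5). KLF2, which responds to blood flow in endothelium (ENSSSCG00000038911, chromosome 2, 61270714 to 61273139), rose 1.57-fold, from 44.7 ± 5.70 CPM at P7 to 70.5 ± 9.06 at P28 (SD, n = 3; adjusted p = 0.0444). P3 number 5 and 6, at 74.8 and 74.0 CPM, lay among the libraries of P28. The call was lost without P1 number 4, 5 or 6, P7 number 4, 5 or 6 or P28 number 4, 5 or 6, with an adjusted p of up to 0.143 (without P7 number 6). KLF16 (ENSSSCG00000024672, chromosome 2, 76680219 to 76690842) passed over 4 ages only (adjusted p = 0.0275), with 101, 87.0 and 81.9 CPM at P3 as its highest age and 54.1, 67.8 and 61.8 at P28, and was lost without P1 number 6, P7 number 4 or 5 or P28 number 4 or 6, with an adjusted p of up to 0.0683 (without P28 number 6), and with the replicate block (adjusted p = 0.0509). KLF4, also an early response gene, had a log2 difference from P7 to P28 of 0.52 (95% interval -0.039 to 1.08), and KLF13, the KLF with the highest CPM at 372, had one of -0.18 (95% interval -0.48 to 0.13).

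The 2 inhibitory SMAD genes fell after P1, whereas the signaling SMAD genes did not pass in any comparison. SMAD7, which blocks TGF-β and BMP receptors (ENSSSCG00000004507, chromosome 1, 98510229 to 98542382), had 119, 74.7 and 68.4 CPM at P1, 42.7, 49.98 and 38.0 at P3, 36.2, 38.6 and 42.5 at P7 and 34.3, 30.5 and 44.6 at P28. Every library of P1 lay above every library of the later ages. It fell 2.23-fold from P1 to P7 (log2 -1.16, SE 0.22, adjusted p = 0.0210) and 2.40-fold from P1 to P28 (log2 -1.26, SE 0.22, adjusted p = 0.00257). The fall to P28 passed without any single library, and that to P7 was lost without P1 number 4 or P7 number 4, 5 or 6, with an adjusted p of up to 0.125 (without P7 number 5). From P1 to P3 the log2 difference was -1.01 with an adjusted p of 0.0958.

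SMAD6, which blocks BMP signaling (ENSSSCG00000004948, chromosome 1, 164657086 to 164735083) and lies near SMAD3 on chromosome 1, had 44.7, 37.2 and 28.7 CPM at P1, 27.7, 30.2 and 22.7 at P3, 19.0, 18.5 and 19.1 at P7 and 14.1, 19.0 and 25.7 at P28. The groups of P1 and P7 did not overlap, nor did those of P1 and P28. It fell from P1 to P7 (log2 -0.97, SE 0.22, adjusted p = 0.0442) and from P1 to P28 (log2 -0.91, SE 0.22, adjusted p = 0.0165). The first call was lost without P1 number 4, 5 or 6, P7 number 4, 5 or 6 or P28 number 5, with an adjusted p of up to 0.172 (without P7 number 5), and with the replicate block (adjusted p = 0.0660). The second was lost without P1 number 4 or P28 number 4 or 5, with an adjusted p of up to 0.0582 (without P1 number 4). P1 number 4, which stood apart, was the highest library for both genes.

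SMAD2 and SMAD3, which carry TGF-β signals, had log2 differences from P1 to P28 of -0.17 (95% interval -0.50 to 0.17) and 0.23 (95% interval -0.063 to 0.53). SMAD5, which carries BMP signals, had -0.084 (95% interval -0.42 to 0.25), and SMAD4 0.15 (95% interval -0.18 to 0.48). P3 number 5 was the lowest of the 12 libraries for SMAD2, SMAD4 and SMAD5, at 148, 261 and 251 CPM. Of 13 other genes of the TGF-β and BMP pathway tested, ID3, a BMP target that blocks helix-loop-helix factors, fell from P1 to P7 (log2 -0.72, adjusted p = 0.0151) and from P1 to P28 (log2 -0.54, adjusted p = 0.0128). The receptor TGFBR2 fell from P1 to P28 (log2 -0.36, adjusted p = 0.0462) and the activin receptor ACVR2B rose (log2 1.12, adjusted p = 0.0356). The background was 7.38% rising and 7.93% falling from P1 to P28, and 2.01% passing from P1 to P7. From P7 to P28, 2 of the 13 fell (background 10.5%), TGFBR2 and the ligand BMP4 (log2 -0.93, adjusted p = 0.0149), and none rose (background 8.34%).

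TCF21, TBX18 and MEIS3 had all their P28 libraries below every library of the other ages. TCF21, a helix-loop-helix factor of cardiac fibroblasts and their epicardial precursors (ENSSSCG00000033258, chromosome 1, 29973380 to 29978255), had 44.2, 41.1 and 38.2 CPM at P1, 31.0, 36.6 and 38.5 at P3, 33.2, 31.2 and 34.8 at P7 and 18.1, 19.0 and 22.4 at P28. TCF21 fell 2.08-fold from P1 to P28 (log2 -1.05, SE 0.14, adjusted p = 6.78e-04) and also fell from P7 to P28 (log2 -0.74, SE 0.14, adjusted p = 0.00395).

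TBX18, a T-box factor of epicardium and of the sinus node (ENSSSCG00000004290, chromosome 1, 53837454 to 53867475), had 62.4, 85.6 and 76.8 CPM at P1, 68.8, 55.8 and 72.6 at P3, 79.1, 73.0 and 78.4 at P7 and 44.2, 44.8 and 37.0 at P28. The highest P28 library, at 44.8 CPM, lay below every other library. TBX18 fell from P1 to P28 (log2 -0.83, SE 0.15, adjusted p = 0.00390) and from P7 to P28 (log2 -0.87, SE 0.15, adjusted p = 0.00247). MEIS3, a homeodomain cofactor (ENSSSCG00000003115, chromosome 6, 53175928 to 53188406), had 12.99, 10.01 and 10.22 CPM at P1, 9.79, 15.8 and 14.5 at P3, 10.3, 9.90 and 8.91 at P7 and 5.14, 5.10 and 4.53 at P28. MEIS3 fell from P1 to P28 (log2 -1.17, SE 0.22, adjusted p = 0.00479) and from P7 to P28 (log2 -0.98, SE 0.22, adjusted p = 0.00960). The calls of TCF21, TBX18 and MEIS3 held without any single library. MEIS2, of the same family, had a log2 difference from P1 to P28 of -0.09 (95% interval -0.40 to 0.22).

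Another marker of each of these cell types fell as well. TCF21 and TBX18 are themselves on the marker lists for fibroblasts and epicardium, so only the other genes on these lists add to them. FBN1, the matrix protein fibrillin-1 and the only other fibroblast marker tested of the 12 listed, fell from 3926 ± 286 CPM at P7 to 1069.7 ± 121 at P28 (SD, n = 3; log2 -1.88, adjusted p = 1.41e-04). ALDH1A2, the retinoic acid enzyme of epicardium and the only other one tested of 9 epicardial markers, fell too, from 135 ± 19.7 CPM at P7 to 58.9 ± 4.38 at P28 (SD, n = 3; log2 -1.19, adjusted p = 6.46e-04). Each list thus rests on 1 gene beside the family members.

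Markers of other cells also differed between P7 and P28, where 8.34% of all genes tested rose and 10.5% fell. Of the 7 cardiomyocyte markers tested (of 19 listed), TNNI3, CKM and MYBPC3 rose and none fell. The others did not pass and went both ways (log2 0.15 for MYL3, 2.86 for NPPB, -0.50 for ACTC1 and -0.11 for TPM1). ACTC1 fell from P1 to P28 (log2 -0.60, adjusted p = 0.0340). Of 5 macrophage markers tested (of 12 listed), C1QA, C1QB and C1QC rose and none fell, and their list summed to 373 to 501 CPM at P7 and 691 to 1125 at P28. Of 4 endothelial markers tested (of 13 listed), TIE1 fell and none rose (711 to 901 CPM at P7, 676 to 718 at P28). CDH5 and PLVAP were lower without passing (log2 -0.52 and -0.48). TEK was higher without passing (log2 0.43, adjusted p = 0.0646), and it rose from P1 to P28 (log2 0.53, adjusted p = 0.0356). Neither of the 2 smooth muscle and pericyte markers passed (357 to 552 CPM at P7, 210 to 458 at P28), nor did the 2 lymphocyte markers (355 to 515 and 518 to 600 CPM) or TUBB3, the only nerve marker tested (0.736 to 1.80 and 0.576 to 0.887 CPM). Nearly all of the lymphocyte sum was CD79A, at a mean of 432 CPM at P7 and 559 at P28. LCK, at 2.92 and 4.03 CPM, rose from P1 to P28 (log2 2.09, adjusted p = 0.0156). EPB42, the only erythroid marker tested, fell (2.78 to 5.72 CPM at P7, 0.562 to 1.65 at P28), and no adipocyte marker was tested (ADIPOQ and CIDEC lay under the filter). The part of cell composition in the factors' changes was not tested.

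TCF4 had its highest mean at P7. This E protein, a helix-loop-helix partner of many tissue factors (ENSSSCG00000004535, chromosome 1, 104719137 to 105079919), had 248, 236 and 234 CPM at P1, 234, 245 and 250.1 at P3, 332, 367 and 305 at P7 and 217, 239 and 234 at P28. The libraries of P7 lay above all others. TCF4 rose from P1 to P7 (log2 0.48, SE 0.11, adjusted p = 0.0396) and fell from P7 to P28 (log2 -0.54, SE 0.11, adjusted p = 0.00404). The fall held without any single library, whereas the rise was lost without P1 number 4, 5 or 6, P7 number 4, 5 or 6 or P28 number 4, 5 or 6, with an adjusted p of up to 0.166 (without P7 number 5), and also with the replicate block (adjusted p = 0.0571) and with no filter on low counts. The other E proteins, TCF3 and TCF12, had log2 differences from P7 to P28 of -0.31 (95% interval -0.73 to 0.11) and -0.088 (95% interval -0.40 to 0.22). TCF25 had one of 0.37 (adjusted p = 0.131).

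**Figure D4:**
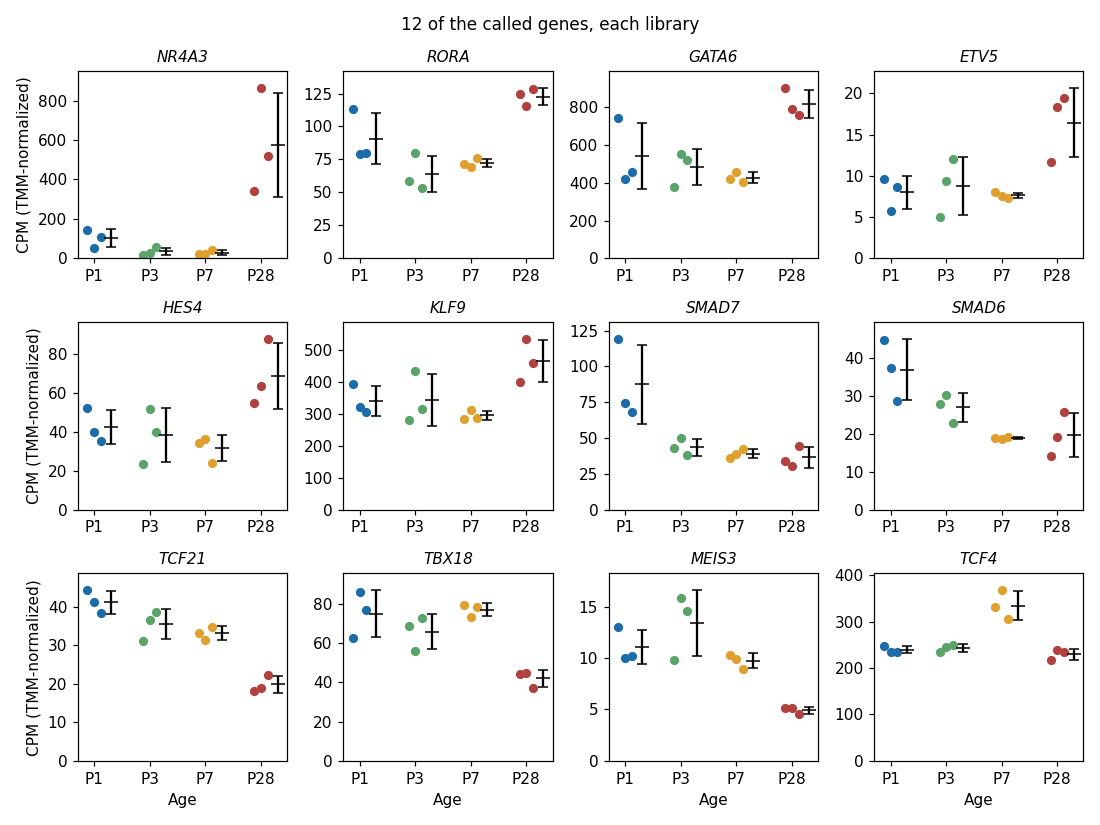
CPM of each library at P1, P3, P7 and P28 for 12 of the genes that passed, with the mean and SD (n = 3) as a bar at the right of each age. The y axes start at 0 and differ between panels. NR4A3, RORA and GATA6 are highest at P28, SMAD7 and SMAD6 at P1, TCF4 at P7, and TCF21, TBX18 and MEIS3 are lowest at P28.

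Among the repressors of the Notch pathway, HES4 rose and HEYL fell from P7 to P28. HES4, a repressor of the HES family (ENSSSCG00000035420, chromosome 6, 63351602 to 63356466), had 52.2, 40.0 and 35.4 CPM at P1, 23.6, 51.6 and 39.8 at P3, 34.1, 36.4 and 23.9 at P7 and 54.7, 63.7 and 87.8 at P28, and rose 2.18-fold from P7 to P28 (log2 1.13, SE 0.28, adjusted p = 0.0148). The groups of P7 and P28 did not overlap, and the call was lost without P7 number 6 or P28 number 6, with an adjusted p of up to 0.0649 (without P28 number 6). HEYL, a HEY repressor of vessels (ENSSSCG00000038956, chromosome 6, 95442661 to 95459575), had 37.3, 30.8 and 25.9 CPM at P1, 31.5, 80.7 and 43.6 at P3, 49.0, 60.0 and 39.0 at P7 and 22.8, 23.2 and 27.2 at P28. It fell from P7 to P28 (log2 -1.02, SE 0.29, adjusted p = 0.0287), again without overlap, and the call was lost without P7 number 4 or 5 or P28 number 4, 5 or 6, with an adjusted p of up to 0.114 (without P7 number 5). P3 number 5 was the highest library for HEYL.

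HEY2 had 349, 187 and 174 CPM at P1 and 293, 184 and 162 at P28, with a wide spread within each age, and its log2 difference was -0.15 (95% interval -0.79 to 0.49), against 0.23 without P1 number 4 and P3 number 5 (adjusted p = 0.569). HES1, the main HES target of Notch, had a log2 difference from P7 to P28 of 0.25 (95% interval -0.24 to 0.73). HES2 and HESX1, a homeobox gene caught by the letters HES, did not pass either. Of 6 other Notch pathway genes tested, the ligand DLL1 rose from P1 to P28 (log2 1.43, adjusted p = 0.0391), and no gene passed from P7 to P28. Over all genes tested, 7.38% rose and 7.93% fell from P1 to P28, and 18.8% passed from P7 to P28. The receptor NOTCH3 had 154, 589.6 and 248 CPM at P3, with P3 number 5 the highest, and did not pass.

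ETV5 rose, and ETV2, the other ETV gene tested, did not pass. It acts downstream of FGF and ERK signaling (ENSSSCG00000023229, chromosome 13, 123873349 to 123930298) and had 9.63, 5.76 and 8.65 CPM at P1, 4.99, 9.33 and 12.0 at P3, 7.996, 7.58 and 7.36 at P7 and 11.6, 18.4 and 19.4 at P28. All libraries of P28 lay above those of P1 and P7, and P3 number 6 lay above the lowest of P28. ETV5 rose from P1 to P28 (log2 1.04, SE 0.31, adjusted p = 0.0413) and from P7 to P28 (log2 1.105, SE 0.31, adjusted p = 0.0275). The first call was lost without P1 number 4, 5 or 6, P7 number 4, 5 or 6 or P28 number 5 or 6, with an adjusted p of up to 0.149 (without P1 number 5), and also with the library number as a replicate block (adjusted p = 0.0531), and the second without P7 number 4, 5 or 6 or P28 number 5 or 6, with an adjusted p of up to 0.0942 (without P7 number 5). ETV2, a factor of early endothelial fate, had 2.96 to 5.68 CPM.

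The FOX genes measured were few and mostly low. FOXO6 (ENSSSCG00000035074, chromosome 6, 169857586 to 169880249) passed over 4 ages only (adjusted p = 0.0274), with 42, 45 and 18 counts at P3 against 2, 3 and 4 at P28 and 2, 18 and 21 at P1. No fold is given, since P28 lay near the floor of 3 counts. The call was lost without P3 number 4 or 5 or P28 number 4, 5 or 6, with an adjusted p of up to 0.0829 (without P28 number 5), and with limma voom (adjusted p = 0.0554). FOXJ3, the one with the highest CPM of the FOX genes that the rule named and a regulator of MEF2 genes in muscle, had a log2 difference from P1 to P28 of 0.15 (95% interval -0.10 to 0.40). FOXC2, FOXD3 and FOXF1 lay between 0.072 and 5.199 CPM in all libraries and did not pass. By identifier, the table also holds FOXO3, FOXP1 and FOXB2 without a name, and the rule therefore left them out. FOXO3, a stress-responsive factor active under low insulin signaling, rose from 315 ± 43.5 CPM at P7 to 568 ± 11.4 at P28 (SD, n = 3; log2 0.85, adjusted p = 0.0148), and from P1 to P28 (log2 0.75, adjusted p = 0.0311). FOXP1 did not pass (log2 from P7 to P28 0.09), and FOXB2 was at 0 counts.

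**Figure D5:**
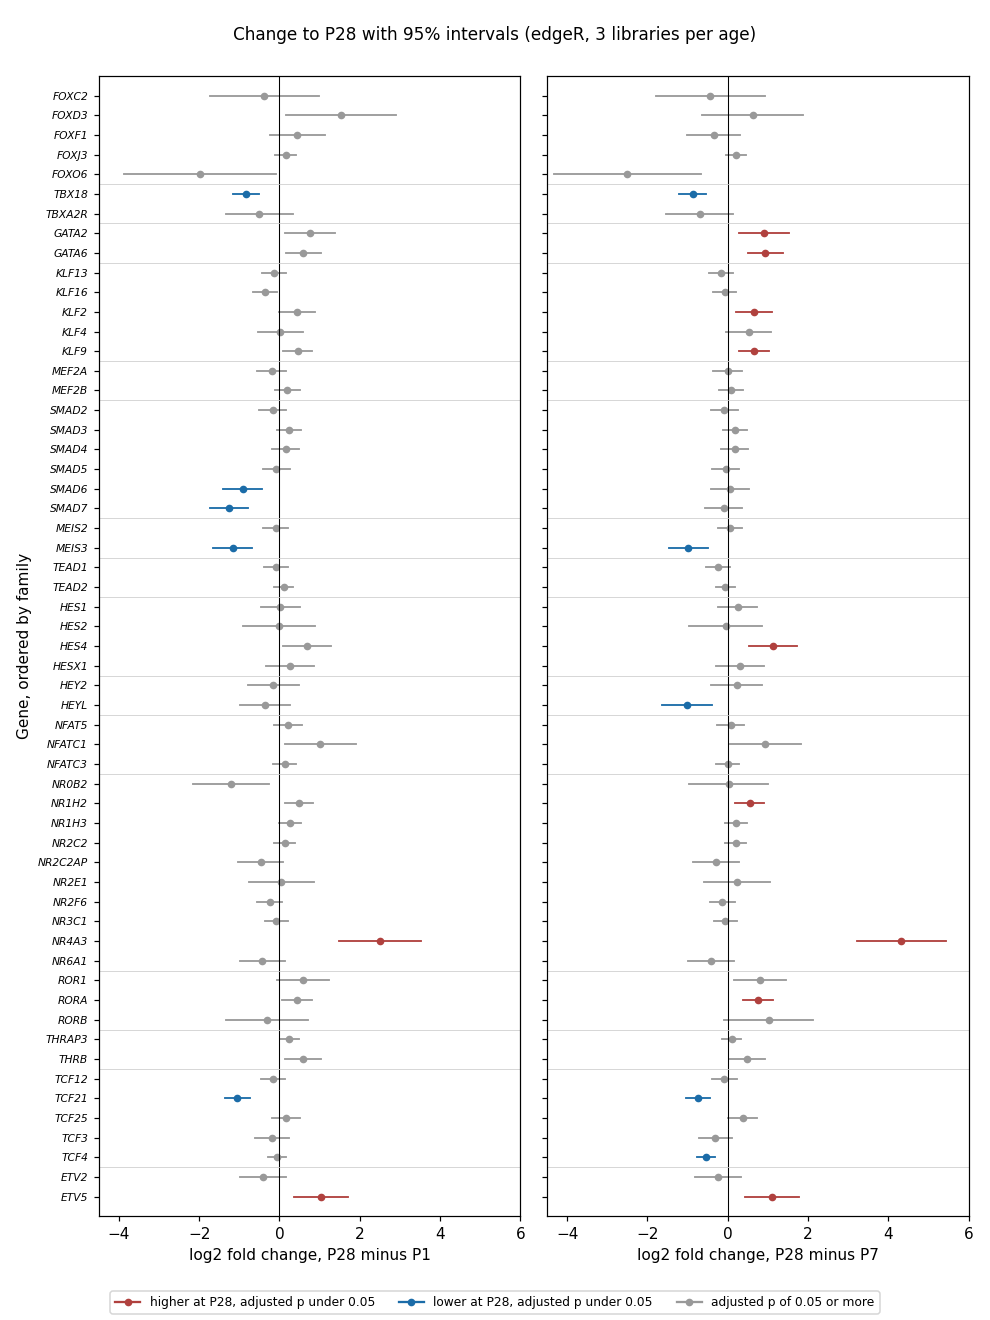
log2 fold change of each of the 57 genes from P1 to P28 (left) and from P7 to P28 (right), with 95% intervals from edgeR and 3 libraries per age. Red and blue mark genes higher and lower at P28 that passed (2 and 5 on the left, 9 and 5 on the right), and gray the rest. NR4A3 lies farthest to the right in both panels, and the low-count genes FOXC2, FOXD3, FOXO6 and RORB have wide intervals.

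MEF2A, MEF2B, TEAD1 and TEAD2, of families that control muscle genes, did not pass in any comparison. MEF2A had 901 ± 84.7 CPM at P1 and 787 ± 50.5 at P28 (SD, n = 3), with a log2 difference of -0.20 (95% interval -0.56 to 0.17), and it overlaps a pseudogene that took reads of its own. MEF2B overlaps BORCS8, so its counts are uncertain. TEAD1 had 505 ± 67.0 CPM at P1 and 476 ± 77.9 at P28 (log2 -0.085, 95% interval -0.38 to 0.21), and TEAD2 had a log2 difference of 0.11 (95% interval -0.13 to 0.34). These intervals exclude a change by a log2 of 1 in either direction, but not small changes.

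Among the NFAT genes, NFAT5, an osmotic stress factor that calcineurin does not control and the one with the highest CPM, and NFATC3, which calcineurin activates, had log2 differences from P1 to P28 of 0.21 (95% interval -0.13 to 0.55) and 0.13 (95% interval -0.16 to 0.42). NFATC1, known from endocardial cells and heart valves, had 24.6, 23.4 and 17.8 CPM at P1, 17.0, 69.4 and 19.7 at P3, 20.1, 26.5 and 22.8 at P7 and 47.7, 39.3 and 46.1 at P28. The groups of P7 and P28 did not overlap, and P3 number 5 was the highest of the 12 libraries. NFATC1 did not pass with all libraries (log2 from P7 to P28 0.94, adjusted p = 0.129), and it did without P1 number 4 and P3 number 5 (log2 0.92, SE 0.15, adjusted p = 0.00201). Of 6 calcineurin, NFAT and MEF2 regulators tested, RCAN3, an inhibitor of calcineurin, fell from P7 to P28 (log2 -0.88, adjusted p = 0.0226), and none rose. Of 8 Hippo pathway genes around TEAD tested, WWTR1, the coactivator TAZ, fell (log2 -0.56, adjusted p = 0.0300), and none rose. The background for both lists was 10.5% of all genes tested falling from P7 to P28 and 8.34% rising.

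The remaining tested genes of the families, which passed in no comparison, included NR1H3, NR2C2, NR2C2AP, NR2E1, NR2F6, NR6A1, TBXA2R and THRAP3. Among them NR1H3 overlaps MADD and ACP2, NR2C2 overlaps MRPS25, NR2C2AP overlaps RFXANK and TBXA2R overlaps GIPC3, so their counts are uncertain, as are those of SMAD4 (over ELAC1), ETV2 (over TMEM147) and TCF12 (over unnamed genes). Of the 57 genes, 17 overlap another gene of the table. Of the 20 that passed, 3 do (TBX18, ROR1 and TCF4), each with genes of few counts. The 17 genes named by the rule but not tested were FOXA3, FOXB1, FOXD1, FOXD2, FOXE1, FOXE3, FOXL1, FOXL2, SOX14, TBX10, TBXT, KLF17, HES3, HES5, NR1I2, NR2E3 and NR5A1. Of these, FOXA3, FOXB1, SOX14 and TBX10 had 0 counts in every library, and a count of 0 allows up to 3 counts, or 0.199 to 0.354 CPM, for counting error only. SOX14 was the only SOX gene named in the table.

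Transcription factors of other families were looked at beside them. Of 23 other cardiac and developmental factors tested, 3 rose (background 8.34%) and 4 fell (background 10.5%) from P7 to P28, and 1 rose (background 7.38%) and 1 fell (background 7.93%) from P1 to P28. IRX3, a homeobox factor of the conduction system, rose from P7 to P28 (log2 0.88, adjusted p = 0.0190), as did ESRRA, a driver of oxidative metabolism (log2 0.58, adjusted p = 0.0248). Neither passed from P1 to P28 (log2 0.69 for IRX3 and 0.080 for ESRRA). The mean CPM of ESRRA was 651 at P1, 459 at P7 and 688 at P28. E2F2, a cell cycle factor, fell from 23.4 ± 5.56 CPM at P7 to 3.42 ± 1.92 at P28 (SD, n = 3; log2 -2.76, adjusted p = 0.00239). RUNX1 rose from P1 to P28 (log2 0.81, adjusted p = 0.0321).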

How the data were processed

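Hearts of 12 pigs, 3 at each of 4 ages, gave the total RNA libraries used here. Libraries were made with a stranded total RNA kit after rRNA depletion. The submitters' processing notes name STAR 2.7.9a, MultiQC 1.11 and the build Sscrofa10.2, and the counting tool and its strand setting are not given in the sources used here. The values deposited by the authors are raw read counts of each gene. The gene table names no build, and 99.9% of 4357 genes compared by symbol overlap their RefSeq position in Sscrofa11.1. Its columns number the libraries 4 to 6 and the GEO titles differ, so libraries were placed by age only. The last line of the table had no counts and was left out. Names of 4609 genes are not given, and 283 of these have a symbol in the name table.

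Counts were analyzed in R 4.3.3 with edgeR 4.0.16 (TMM, quasi-likelihood test, all ages in one fit, no covariates) on genes with at least 10 counts in at least 3 libraries, with limma 3.58.1 and DESeq2 1.42.0 as alternatives. A gene passed at a Benjamini-Hochberg adjusted p under 0.05 over all 5526 genes. Intervals are 95% and SE is the log2 fold change over the root of F. Scripts were tested on simulated data, and plots drawn in Python 3.11.15 with matplotlib 3.10.9. Named were all genes that passed, the top gene of each family, known cardiac members and up to 4 examples per list. The members and lists were chosen with earlier results of these data known. Pigs were separate animals, so p-values measure the spread between pigs. The miRNA and circRNA tables were not used here.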

Additional observations from a re-analysis of the deposited data

How the results depend on the processing

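Directions were compared for the named genes from P1 to P28 and for the genes that passed from P7 to P28. Among these, no difference that passed, with all libraries or under an alternative, changed direction. Differences from P1 to P3 and from P1 to P7 were not compared in this way. Of the values that passed in neither, 15 of 6 genes changed sign from P1 to P28. Without 1 library in turn, the log2 difference ran from -0.46 to 0.24 for HEY2, from -0.23 to 0.026 for TEAD1, from -0.20 to 0.20 for KLF4, from -0.16 to 0.28 for HES1, from -0.0456 to 0.21 for NFATC3 and from -0.17 to 0.015 for NR3C1. Without P1 number 4 and P3 number 5 it was 0.23 for HEY2 and 0.020 for TEAD1, and with the replicate block -0.00145 for KLF4. Over the named genes and comparisons, 1098 values kept their direction and side of the threshold, 42 came to pass and 53 no longer passed.

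Leaving out 1 library in turn gave 9 to 19 genes passing over 4 ages (16 with all libraries), while 13.1% to 30.9% of all genes tested did. It gave 0 to 0 from P1 to P3 (0.0181% to 0.29%), 0 to 4 from P1 to P7 (3 with all; 0.38% to 5.95%), 5 to 14 from P1 to P28 (7 with all; 8.4% to 25.6%) and 8 to 17 from P7 to P28 (14 with all; 10.4% to 28.3%). The lowest counts came without P28 number 6 over 4 ages (9), without P7 number 4, 5 or 6 or P28 number 5 or 6 from P7 to P28 (8), without P1 number 4 or P7 number 4, 5 or 6 from P1 to P7 (0) and without P28 number 5 from P1 to P28 (5). The highest from P1 to P28 came without P3 number 5 (14) or P3 number 4 (12, against 17.4% of all genes). Over 4 ages, 12 genes passed with limma voom (all genes 21.4%), which lost ETV5, FOXO6, HEYL and ROR1, 19 with DESeq2 (32.3%) and 21 with the study's thresholds (37.5%). From P1 to P28, 11 genes passed with DESeq2 (all genes 19.7%), 11 in a fit of these 2 ages alone (21.2%), 15 with the study's thresholds (23.1%) and 18 without P1 number 4 and P3 number 5 (23.7%), an alternative chosen after seeing the data. From P1 to P3, 1 gene passed with DESeq2 (all genes 2.21%), 1 with no filter on low counts (0.406%) and 7 with the study's thresholds (10.6%). From P1 to P7, 7 passed with the study's thresholds (all genes 11.7%), and 2 without P1 number 4 and P3 number 5 (1.57%).

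With the library number as a replicate block, 12 genes passed over 4 ages (all genes 20.1%), 0 from P1 to P3 (0.127%), 1 from P1 to P7 (1.74%), 6 from P1 to P28 (14.2%) and 15 from P7 to P28 (18.3%). Lost were ETV5 from P1 to P28 (adjusted p = 0.0531), SMAD6 and TCF4 from P1 to P7 (0.0660 and 0.0571) and, over 4 ages, ETV5 (0.0553), HES4 (0.0554), KLF16 (0.0509) and NR0B2 (0.0792). Same-numbered libraries of P1 and P28 deviated together (r = 0.331, 0.138 and 0.161). Those of the other ages did so in 2 of 15 pairs (over 0.1; lowest -0.186), and 6 of 12 libraries correlated best with their own number, so the numbers were not taken to pair the pigs over the 4 ages. The cause of these differences was not tested. No scaling moved the median of all genes by over 0.1 on the log2 scale. Each scaling sets most genes near no difference, so this median cannot show whether the results depend on the scaling. With 3 pigs per age and low counts, the changes of FOXO6, FOXD3, FOXC2 and RORB are loosely measured.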
